A study of Mus musculus with 5 samples.

Results

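Across the RNA-Seq libraries, 10 genes for heat shock proteins were followed, out of 23478 genes with counts. They were picked by symbol as 6 stress-inducible genes (Hspa1a, Hspa1b, Dnajb1, Hspb1, Hsph1 and Hsp90aa1) and 4 constitutive genes (Hsp90ab1, Hspa8, Hspd1 and Hspe1). All 10 had enough counts to enter the comparison of genotypes, and the smallest count of any of them in a library was 199. The choice was made with the values of the same libraries already known. Their differences between genotypes are therefore given as a description, with no test.

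The libraries were made from GFP-positive cells sorted from mouse lungs on postnatal day 6 (P6). There were 2 control libraries with the genotype Igf1r Flox/Wildtype, Gli1creER+ and Rosa-EGFP, and 3 Igf1r-deleted libraries with Igf1r Flox/Flox, Gli1creER+ and Rosa-EGFP. Igf1r encodes the receptor for insulin-like growth factor 1. Gli1creER is a tamoxifen-activated Cre recombinase driven from Gli1, a hedgehog target gene of lung fibroblasts, and Rosa-EGFP is a reporter that Cre switches on. Every pup in both groups received tamoxifen, 100 µg on each of P0 and P1. The controls also carried Cre, the reporter and 1 floxed allele. The mice were of mixed background and both sexes, and the number of pups behind each library is not given in the sources used here. The labels do not say that replicates came from separate litters or animals, so a p-value here measures only the spread between these libraries, which may be technical.

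Heat shock proteins are molecular chaperones, which bind unfolded or newly made proteins and help them to fold, refold or be degraded. The inducible members, some of which are also expressed in resting cells, are transcribed more within minutes of heat, oxidative or proteotoxic stress. The heat shock factor HSF1 then forms trimers and binds heat shock elements in their promoters. The constitutive members serve everyday folding in the cytosol and in mitochondria and respond to HSF1 to a smaller degree. In solid tissue such as lung, enzymatic dissociation at warm temperature and cell sorting are known to induce immediate early and heat shock genes.

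A heat shock element is built from inverted repeats of a short unit, GAA read in alternating directions. Promoter windows of 300 bases (250 before and 50 after the annotated start) from RefSeq on GRCm38.p6 were searched for 2 adjoining units, GAANNTTC or TTCNNGAA, and for 3 units, GAANNTTCNNGAA or TTCNNGAANNTTC. Each pair of patterns covers both strands, and a match of 3 units holds 2 overlapping matches of 2 units. Of 32851 windows, 15.1% held a match of 2 units and 0.603% a match of 3 units. The windows available covered 7 of the 10 genes. Hspa8, Hsp90aa1 and Hsp90ab1 had none, and their promoters were not used here. The stretches below are shown because matches lay before the start of inducible and of constitutive genes, though not of Dnajb1. Capitals mark the matched units.
Hspa1a, chr17:34972228-34972285, minus strand, 129 to 72 bases before the start: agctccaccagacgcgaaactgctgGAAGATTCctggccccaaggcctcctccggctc
Hspa1b, chr17:34959310-34959367, minus strand, 129 to 72 bases before the start: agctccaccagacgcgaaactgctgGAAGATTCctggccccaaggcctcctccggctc
Hspb1, chr5:135887777-135887854, plus strand, 142 to 65 bases before the start: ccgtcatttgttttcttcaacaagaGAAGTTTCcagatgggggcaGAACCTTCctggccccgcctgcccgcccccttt
Hsph1, chr5:149636351-149636380, minus strand, 44 to 15 bases before the more upstream of its 2 annotated starts: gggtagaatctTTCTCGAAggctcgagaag
Hspe1, chr1:55088053-55088082, plus strand, 95 to 66 bases before the start: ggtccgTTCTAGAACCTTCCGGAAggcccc
Hspd1, chr1:55088053-55088082, minus strand, 150 to 121 bases before the more downstream of its 2 annotated starts: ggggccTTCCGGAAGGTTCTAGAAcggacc

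The stretches of Hspa1a and Hspa1b were identical, and the whole windows of the pair differed at 4 of 300 bases. Hspe1 and Hspd1 are neighbours on opposite strands, and the same bases between the start of Hspe1 and that start of Hspd1 gave both genes a run with 2 overlapping matches of 3 units. Hsph1 also held a match of 3 units, after its start. Annotated exons cover all bases of the stretch of Hspe1 and Hspd1 and 26 bases of the Hsph1 stretch. These stretches thus lie before the RefSeq starts named above but within annotated transcripts. The 2 windows of Dnajb1 and the window of the other Hspd1 start held none of these letters, which says only that the exact patterns are not in those bases. A 3-unit match was thus found in a constitutive pair and in Hsph1, and not in the windows of Hspa1a, Hspa1b, Hspb1 or Dnajb1.

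Libraries held 35116766 to 37597857 counts, and expression is reported in CPM. This unit gives the reads of a gene per fixed number of reads in its library, after each library total was corrected by a TMM factor of 0.961 to 1.06. Values in a row follow the replicate numbers, first those of the 2 controls and then those of the 3 Igf1r-deleted libraries, which are called the libraries after deletion. Igf1r itself was at 324 and 324 CPM in the controls and at 140, 177 and 194 CPM in Igf1r-deleted replicates 1, 2 and 3, so each library matched its label. Across the 15298 genes tested, the quasi-likelihood F test of edgeR (Benjamini-Hochberg adjusted) called 0 genes at an adjusted p under 0.05 (0% of genes). At an unadjusted p under 0.05 it called 1897 genes, and DESeq2's Wald test called 197 at an adjusted p under 0.05 (1.29% of genes). In bulk RNA from sorted cells, fewer cells with a transcript and less transcript in each cell cannot be told apart.

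Hspa1a and Hspa1b encode the near-identical stress-inducible HSP70 proteins, which hold unfolded proteins in cycles of ATP hydrolysis. Hspa1a was at 985 and 1122 CPM in controls, and at 521, 119 and 114 CPM after deletion. No library after deletion reached either control, and within that group replicate 1 stood well above the others. Group means were 1054 ± 97.2 CPM (SD, n = 2) and 251 ± 234 CPM (SD, n = 3), and the fitted log2 difference was −2.07 (standard error 0.63).

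Hspa1b was at 742 and 1217 CPM in controls and 543, 88.2 and 116 CPM after deletion. The groups again did not overlap, although Igf1r-deleted replicate 1 came closer to control replicate 1 than for Hspa1a. Group means were 979 ± 336 CPM (SD, n = 2) and 249 ± 255 CPM (SD, n = 3), with a log2 fold change of −1.98 (standard error 0.72). Among 15298 genes ordered from the lowest log2 fold change, Hspa1a was number 38 and Hspa1b number 44.

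In the Igf1r-deleted group the SD of both genes was about as large as the mean. Relative to the control mean, Hspa1a was at 49.5%, 11.3% and 10.8% in Igf1r-deleted replicates 1, 2 and 3, and Hspa1b at 55.4%, 9.004% and 11.9%. The highest Igf1r-deleted library exceeded the lowest 4.58-fold for Hspa1a and 6.15-fold for Hspa1b. Of 9101 genes ranked by the SD of log2 CPM within that group, Hspa1b was number 8 and Hspa1a number 12. The other heat shock protein genes with a rank were numbers 750 to 5157, and Hspe1, with a mean under 10 CPM, was not ranked. Without Igf1r-deleted replicate 1 the log2 fold changes became −3.18 and −3.26, and without another library they lay between −2.17 and −1.72 for Hspa1a and between −2.30 and −1.57 for Hspa1b.

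**Figure D1:**
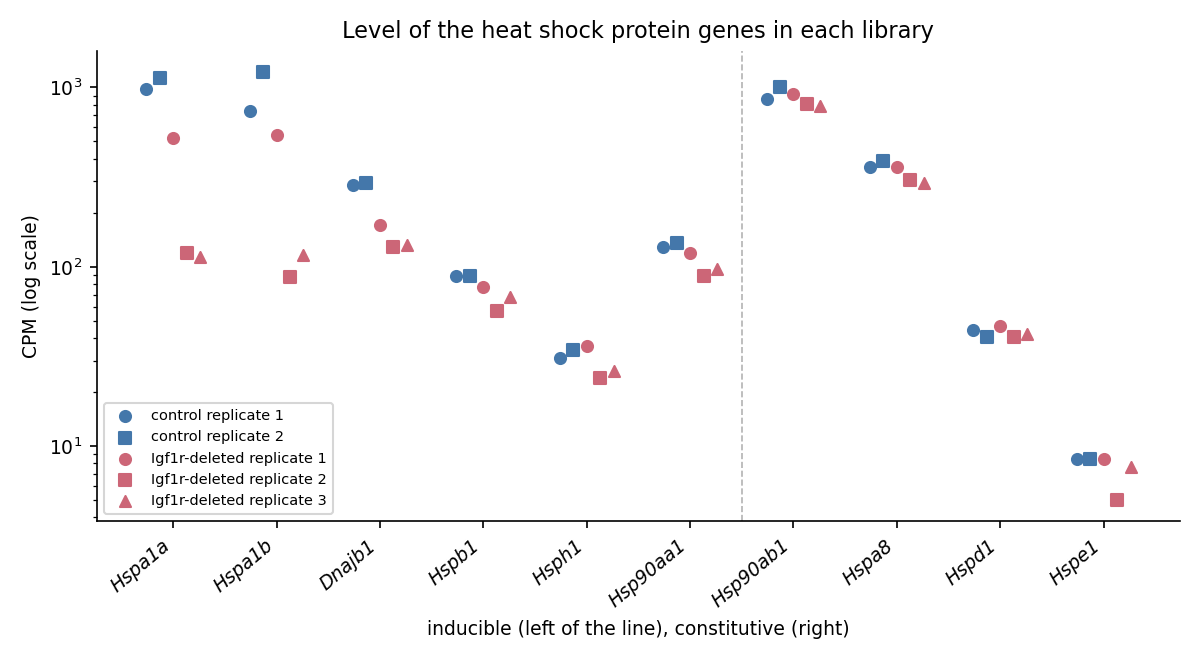
Level of each gene (CPM, log scale) in the 5 libraries, with control libraries in blue and Igf1r-deleted libraries in red and one point for each library. Hspa1a and Hspa1b lie at 985 and 742 CPM in control replicate 1 and at 119 and 88.2 CPM in Igf1r-deleted replicate 2, with Igf1r-deleted replicate 1 in between, while the points of Hsp90ab1, Hspa8 and Hspd1 lie close together.

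The pair lies head to tail on the minus strand of chromosome 17 of mm10, each gene in 1 exon (Hspa1a from 34969190 to 34972156, Hspa1b from 34956436 to 34959238). Of all 150-base stretches of Hspa1a, the length of 1 read, 38.1% also occur in Hspa1b, and 40.5% of those of Hspa1b occur in Hspa1a. A read from these parts cannot by itself be assigned to 1 of the 2, although its mate may lie in other sequence. The separate values are therefore uncertain and the sum is firmer. The summed level was 1726 and 2340 CPM in controls and 1064, 207 and 230 CPM after deletion. Counted as 1 gene, the pair had a log2 fold change of −2.02. The ratio of Hspa1a to Hspa1b counts ranged from 0.922 to 1.33 in the controls and from 0.960 to 1.35 in the Igf1r-deleted libraries, so it overlapped between genotypes.

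Hspa1l, another HSP70 gene known for its expression in testis, starts 547 bases from the start of Hspa1a on the opposite strand and was not among the 10 genes. It was at 18.2 and 17.1 CPM in controls and 8.81, 7.39 and 5.45 CPM after deletion. Its level was lower in each Igf1r-deleted library, and Igf1r-deleted replicate 1 did not stand apart as it did for Hspa1a. The log2 fold change of Hspa1l was −1.29 (standard error 0.21), with an adjusted p of 0.354 by edgeR after Benjamini-Hochberg adjustment. The annotated antisense gene Gm10501 overlaps 71.9% of the exon bases of Hspa1l, and Gm20481, on the plus strand, overlaps 19.0% of those of Hspa1a. In addition, 3.62% of the 150-base stretches of Hspa1l occur in Hspa1a and 2.98% of those of Hspa1a occur in Hspa1l. A read from these stretches cannot by itself be assigned to either gene, and Hspa1a had far more reads. The value of Hspa1l is therefore uncertain as that of a separate gene. Neither Gm10501 nor Gm20481 has counts of its own in the table, and the use of strand in counting is not given in the sources used here, so reads of either strand cannot be told apart.

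**Figure D2:**
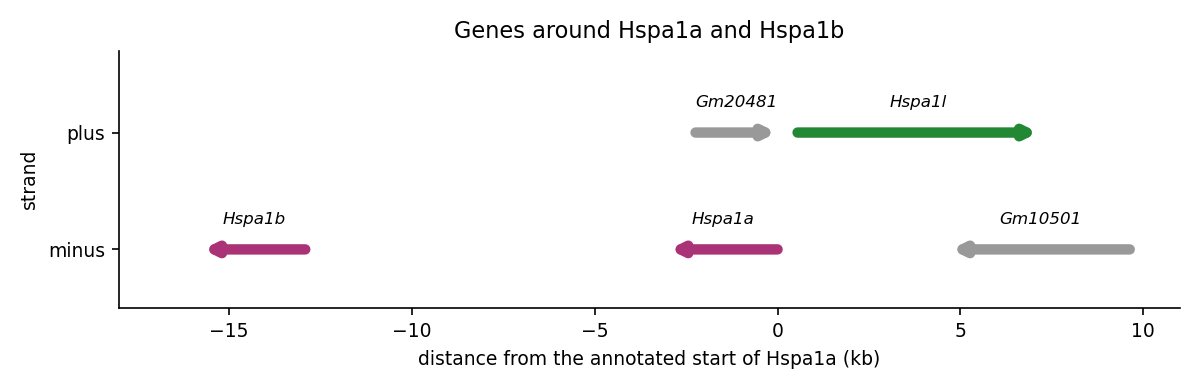
Map of the annotated genes around Hspa1a by distance from its start (kb) and by strand, with arrows pointing in the direction of transcription. Hspa1b follows Hspa1a on the same strand, Hspa1l begins 547 bases away on the other strand, and Gm20481 and Gm10501 (grey) overlap Hspa1a and Hspa1l.

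Dnajb1 encodes the HSP40 cochaperone that hands unfolded proteins to HSP70 and speeds its ATP hydrolysis. It lies on chromosome 8 from 83608193 to 83612653. Dnajb1 was at 285 and 291 CPM in controls and 171, 129 and 132 CPM after deletion. The libraries of each genotype were close together and the groups were far apart. Means were 288 ± 4.38 CPM (SD, n = 2) and 144 ± 23.1 CPM (SD, n = 3), and the log2 fold change of Dnajb1 was −1.003 (standard error 0.14). No 150-base stretch of Dnajb1 occurs in another annotated gene, so this value does not depend on the shared HSP70 sequence. As for Hspa1a, Igf1r-deleted replicate 1 was the highest of its group, at 59.1% of the control mean against 44.7% and 45.9%.

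Hspb1 encodes the small heat shock protein HSP25, the mouse counterpart of human HSP27, which holds unfolded proteins and binds actin. It lies on chromosome 5 from 135887919 to 135889563. Hspb1 was at 88.4 and 88.8 CPM in controls and 77.0, 56.4 and 67.6 CPM after deletion, without overlap. The log2 fold change was −0.40 (standard error 0.14). The processed pseudogene Hsp25-ps1 shares 39.1% of its 150-base stretches.

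Hsp90aa1 encodes HSP90 alpha, the stress-inducible form of a chaperone for kinases and steroid receptors, on chromosome 12 from 110690605 to 110702728. It was at 129 and 135 CPM in controls and 120, 88.9 and 97.8 CPM after deletion, again without overlap. The log2 fold change was −0.37 (standard error 0.14), and 28.5% of its 150-base stretches occur in other annotated genes, most of them in Gm12346.

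Hsph1 encodes HSP110, which exchanges the nucleotide of HSP70, on chromosome 5 from 149614287 to 149636376. It was at 31.1 and 34.4 CPM in controls and 36.4, 24.1 and 26.2 CPM after deletion. Here Igf1r-deleted replicate 1 was the highest of all 5 libraries, so the genotypes overlapped. The log2 fold change was −0.18 with a standard error of 0.18, within the spread between libraries. It was −0.07 without Igf1r-deleted replicate 2, −0.12 without control replicate 2 or without Igf1r-deleted replicate 3, and −0.38 without Igf1r-deleted replicate 1.

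The constitutive genes follow. Hsp90ab1, on chromosome 17 from 45567775 to 45573271, encodes HSP90 beta, the constitutive partner of HSP90 alpha. Hsp90ab1 was at 865 and 1008 CPM in controls and 924, 810 and 787 CPM after deletion. The genotypes overlapped, with a log2 fold change of −0.16 (standard error 0.13) that ran from −0.27 to −0.05 with 1 library left out. The value was −0.05 when control replicate 2 was left out, −0.27 when control replicate 1 was left out, and −0.24 when Igf1r-deleted replicate 1 was left out. Hspa8, on chromosome 9 from 40800984 to 40810087, encodes HSC70, the HSP70 of unstressed cells. Hspa8 was at 359 and 387 CPM in controls and 359, 303 and 293 CPM after deletion. Control replicate 1 (358.6 CPM) and Igf1r-deleted replicate 1 (358.5 CPM) were all but equal, and only that margin kept the genotypes from overlapping. The log2 fold change of Hspa8 was −0.23 (standard error 0.12), and −0.33 to −0.18 with a library left out.

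Hspd1 and Hspe1 encode HSP60 and HSP10, which together form the folding chamber of the mitochondrial matrix. They lie on chromosome 1 from 55077835 to 55088243 and from 55088132 to 55091307. Hspd1 was at 44.2 and 40.6 CPM in controls and 47.0, 40.6 and 42.4 CPM after deletion, with a log2 fold change of 0.03 (standard error 0.11). It was the only one of the 10 with a value above 0, and its sign turned without control replicate 2 (−0.04) or without Igf1r-deleted replicate 1 (−0.04), with 0.07 without Igf1r-deleted replicate 2 and 0.09 without control replicate 1. Hspe1 was at 8.50 and 8.43 CPM in controls and 8.44, 5.004 and 7.65 CPM after deletion, with a log2 fold change of −0.27 (standard error 0.24). Igf1r-deleted replicate 2 was the low one, and without it the log2 fold change of Hspe1 was −0.08, while without Igf1r-deleted replicate 1 it was −0.43. The genotypes overlapped for both genes. Their exons overlap over 112 bases on opposite strands.

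**Figure D3:**
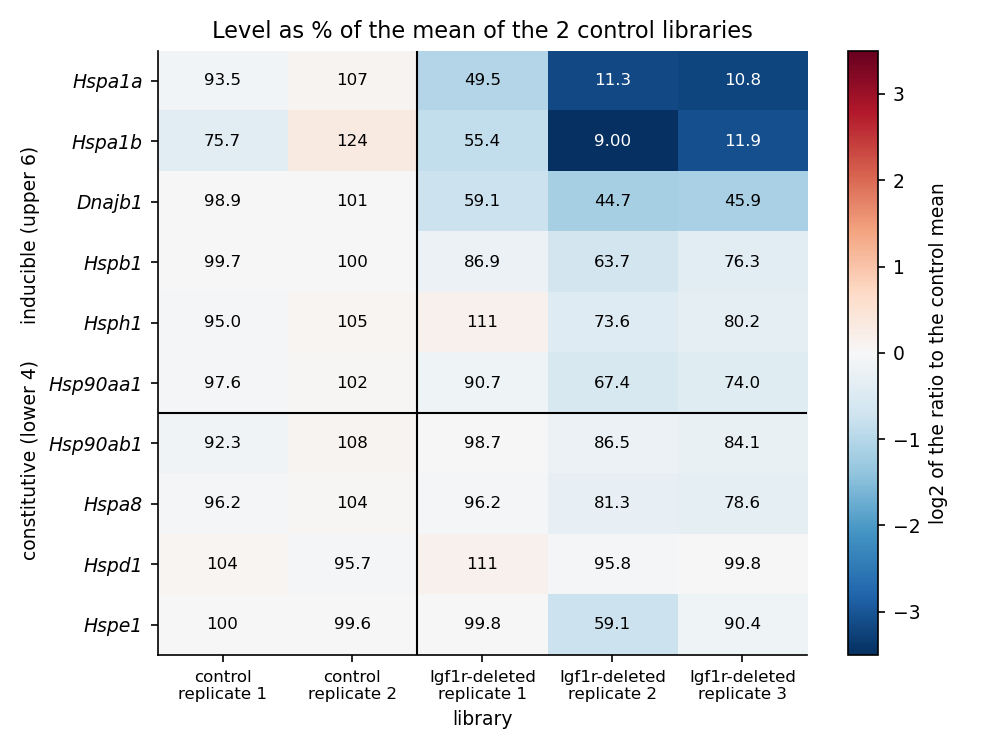
Level of each gene in each library as a percentage of the mean of the 2 control libraries, with blue cells below and red cells above that mean on a log2 colour scale. The darkest cells are Hspa1a (11.3% and 10.8%) and Hspa1b (9.004% and 11.9%) in Igf1r-deleted replicates 2 and 3, and Hspd1 stays between 95.7% and 111% throughout.

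By class, 6 of 6 inducible genes were lower in the Igf1r-deleted libraries, 5 of them without overlap, with a median log2 fold change of −0.70. Of the 4 constitutive genes 3 were lower, 1 without overlap (Hspa8, by the margin given above), with a median of −0.19. Over all genes tested the median was 0.01, with 7301 lower and 7997 higher, and 14.9% were lower without overlap. Nothing is read from these counts about the classes, since the same comparison had been seen when the genes were picked.

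The contrast between classes can be taken within each library, where it does not depend on the library's scaling. The mean log2 CPM of the inducible genes minus that of the constitutive genes was 0.98 and 1.12 in controls and 0.57, −0.19 and −0.18 after deletion. The inducible mean was thus above the constitutive mean in both controls and in Igf1r-deleted replicate 1, and below it in the other two. Group means were 1.05 ± 0.10 (SD, n = 2) and 0.07 ± 0.44 (SD, n = 3), a difference of −0.98. Without Hspa1a and Hspa1b the values were −0.05 and −0.04 in the control replicates and −0.30, −0.42 and −0.43 in Igf1r-deleted replicates 1, 2 and 3, a difference of −0.34 with less spread within the Igf1r-deleted group.

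Inducible genes were also set against constitutive genes within each library by the ratio of their counts, which is not divided by gene length. The ratio of Hspa1a plus Hspa1b to Hspa8 was 4.81 and 6.05 in controls and 2.97, 0.683 and 0.786 after deletion. This ratio was lower in each library after deletion than in either control, with Igf1r-deleted replicate 1 between the controls and the other replicates. The ratio of Dnajb1 to Hspa8 was 0.796 and 0.753 in controls and 0.476, 0.425 and 0.452 after deletion, with little spread in either group. The ratio of Hsp90aa1 to Hsp90ab1 was 0.149 and 0.134 in controls and 0.130, 0.110 and 0.124 after deletion. In that ratio the genotypes did not overlap, but the gap between control replicate 2 and Igf1r-deleted replicate 1 was smaller than the range within either group.

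**Figure D4:**
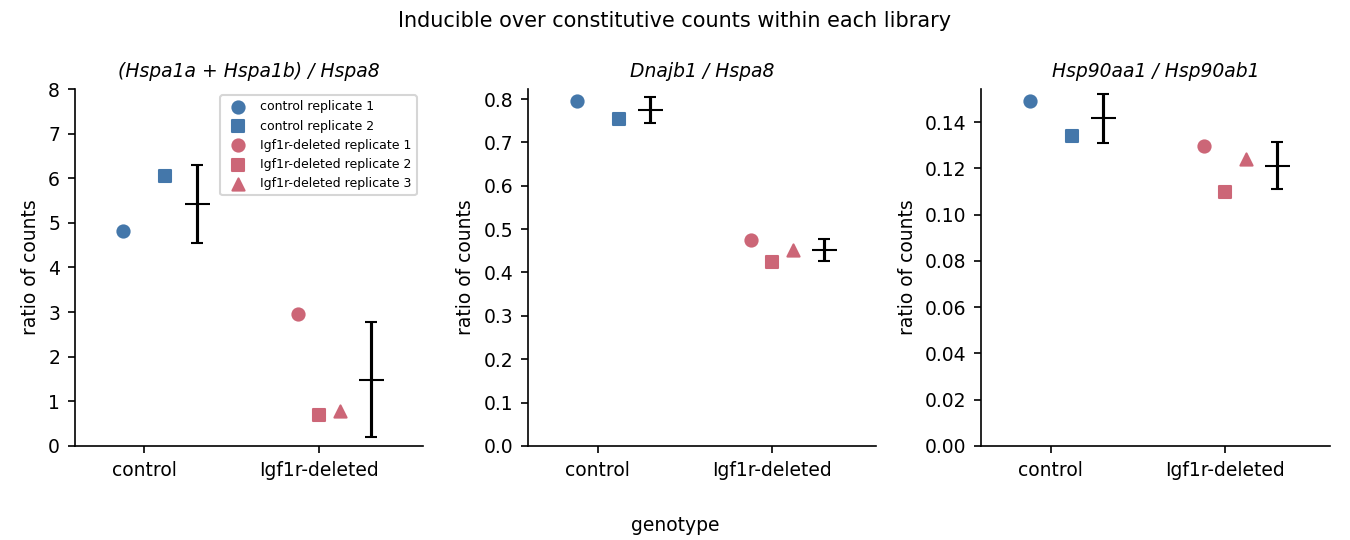
Ratios of counts of inducible to constitutive genes within each library, with one point for each library and black bars for the mean and SD of each genotype, on axes that start at 0. The HSP70 ratio spreads widely in the Igf1r-deleted group (0.683 to 2.97), the Dnajb1 ratio lies near 0.774 in controls and 0.451 in Igf1r-deleted libraries, and the HSP90 ratios of the genotypes lie close together.

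To set the levels of the 10 genes against each other, CPM was divided by exon length (CPM per kb). That length merges all annotated exons of a gene and can exceed the length of its transcript. The share of 150-base stretches found in other genes also differed, at 39.1% for Hspb1, 23.0% for Hspa8 and none for Dnajb1. Levels of different genes are thus compared only roughly. In the controls Hspa1a (355 ± 32.8), Hspa1b (349 ± 120) and Hsp90ab1 (312 ± 33.9, SD, n = 2) were the highest and did not differ beyond their spread. Dnajb1 (90.0 ± 1.37), Hspa8 (86.7 ± 4.64) and Hspb1 (85.9 ± 0.311) followed with like values on this scale. Hsp90aa1 was at 33.6, Hspd1 at 16.1, Hspe1 at 5.74 and Hsph1 at 4.50 CPM per kb. The order of Hspe1 and Hsph1 follows from their merged exon lengths of 1.47 and 7.27 kb. In CPM, Hsph1 (32.7) was above Hspe1 (8.46) in the controls. In the Igf1r-deleted libraries Hsp90ab1 was alone at the top (280 ± 24.5, SD, n = 3). Hspa1a (84.7 ± 78.8) and Hspa1b (88.9 ± 90.8) then overlapped with Hspa8 (74.0 ± 8.22), Hspb1 (65.0 ± 10.01) and Dnajb1 (44.9 ± 7.21). The 10 genes together took 0.340% and 0.424% of all counts in the controls and 0.275%, 0.176% and 0.172% in Igf1r-deleted replicates 1, 2 and 3.

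Other genes of the chaperone network were taken from 7 lists with 103 genes, of which 100 were tested. Of these 40 were lower and 60 higher after deletion, and the median log2 fold change was 0.07. None had an adjusted p under 0.05 in edgeR (quasi-likelihood test, Benjamini-Hochberg adjusted). DESeq2's Wald test called 2 of the 100, beside 1.29% of all genes. These were Hspa1l and the testis-enriched HSP70 gene Hspa2 (log2 fold change −0.48), both lower. At an unadjusted p under 0.05, 5 were lower and 7 higher (12% of the 100, beside 6.75% lower and 5.65% higher among all genes tested, 12.4% in all). These counts depend on single libraries. Of the listed genes 2 were called without control replicate 1, 4 without Igf1r-deleted replicate 2, 6 without Igf1r-deleted replicate 3 and 12 without Igf1r-deleted replicate 1, where all genes gave 433, 993, 1113 and 3183 calls. Without overlap, 14 of the 100 were lower and 23 higher, where all genes gave 14.9% lower and 16.0% higher.

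Heat shock factors act upstream of the inducible genes. The transcript of Hsf1, named for its role, was at 21.0 and 20.3 CPM in controls and 21.1, 26.1 and 22.7 CPM after deletion. The levels of Hsf1 were thus no lower in the Igf1r-deleted libraries, and transcript level does not measure HSF1 activity. The 4 tested genes of this list ran from −0.09 on the log2 scale for Hsbp1, which binds HSF1 trimers, to 0.58 for Hsf4, a factor of the lens, at 0.982 to 2.17 CPM over the 5 libraries. None had an unadjusted p under 0.05.

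Of 16 tested genes on a list headed other heat-inducible cytosolic chaperones, 12 were lower, and the median log2 fold change was −0.06. The heading is loose, as the list also holds the testis gene Hspa1l and Serpinh1, a collagen chaperone of the endoplasmic reticulum. Without overlap, 6 were lower and 2 higher, beside 14.9% lower and 16.0% higher among all genes. Hspa1l was the lowest and Dnajb2, a neuronal HSP40, the highest at 0.31 (standard error 0.11). Bag3, a cochaperone of HSP70 and Hspb8 in selective autophagy, was lower in each Igf1r-deleted library, at 180 and 156 CPM in controls and 148, 112 and 123 CPM after deletion. Bag3 was chosen after its values were seen, and its log2 fold change was −0.39 (standard error 0.14). Hspa1a and Hspa1b had lower log2 fold changes than every tested gene of the 7 lists, and Dnajb1 than every one but Hspa1l. Hspa1a, Hspa1b and Dnajb1 had been picked with these values known.

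Of 16 HSP90 cochaperones 13 were higher, with a median of 0.10. They ran from −0.10 for Cdc37, which brings kinases to HSP90, to 0.46 (standard error 0.16) for Ppid, the cyclophilin of steroid receptor complexes. Of 23 genes on the list of HSP70 cochaperones and exchange factors 10 were lower and 13 higher (median 0.03). The lowest was Hspb11 at −0.49 (standard error 0.30), a gene at only 1.38 to 2.51 CPM over the 5 libraries. The cytosolic chaperonin TRiC and prefoldin, which fold actin and tubulin, had 6 lower and 7 higher genes between −0.20 (Cct5) and 0.27 (Cct6a).

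Among the other mitochondrial chaperones and proteases 6 were lower and 8 higher, from −0.48 for Hscb, an iron-sulfur cluster cochaperone, to 0.30 for the inner membrane protease Yme1l1. Of the 14 endoplasmic reticulum chaperones, which answer to the unfolded protein response rather than to HSF1, 12 were higher with a median of 0.12. These ran from −0.09 for Dnajc3 to 0.47 (standard error 0.27) for Sdf2l1, and none had an unadjusted p under 0.05. Sdf2l1 was at 8.50 and 12.6 CPM in controls and 19.3, 12.8 and 11.5 CPM after deletion, so the genotypes overlapped. Igf1r-deleted replicate 1 was the highest library for it.

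**Figure D5:**
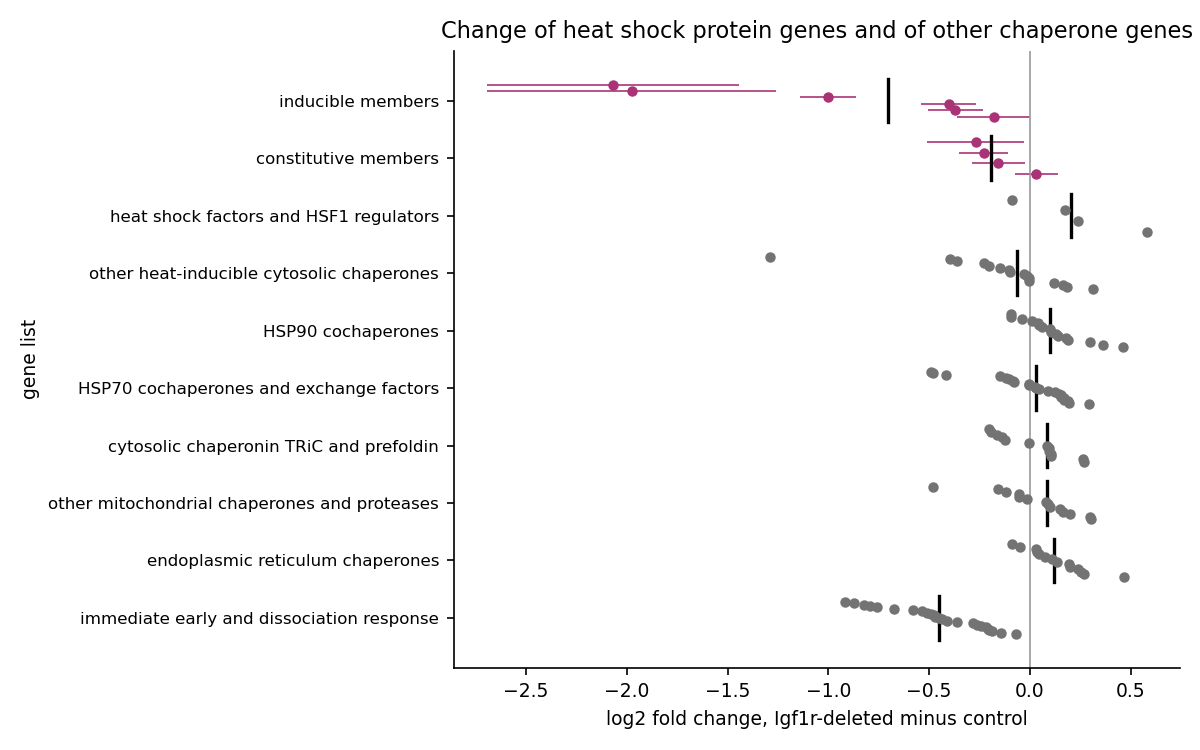
Log2 fold change (Igf1r-deleted minus control) of each tested gene by list, with one point for each gene, black lines for list medians, and standard errors drawn for the heat shock protein genes only. Hspa1a (−2.07), Hspa1b (−1.98), Hspa1l (−1.29) and Dnajb1 (−1.003) lie apart from the other chaperone genes, and the immediate early list lies wholly below 0.

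Genes that respond early to dissociation were lower along with the inducible genes. Of 25 immediate early genes 25 were lower after deletion, and their median log2 fold change was −0.45. At an unadjusted p under 0.05 edgeR called 15 of them lower (60.0% of the list, beside 6.75% of all genes), and none at an adjusted p under 0.05. DESeq2 called 10 of the 25 at an adjusted p under 0.05, where it called 1.29% of all genes. The list was chosen with earlier results of these data known, so these shares only describe it. Its calls were not counted again with a library left out. Their summed level was 35043 and 28796 CPM in controls and 23444, 23076 and 26824 CPM after deletion. Named here are the 3 with the highest mean CPM over all 5 libraries, Egr1, Cyr61 and Fos. Egr1 was at 3891 and 3659 CPM in controls and 2476, 3250 and 3706 CPM after deletion, with overlap. Cyr61 was at 3301 and 2879 CPM against 2429, 2548 and 3004 CPM, also with overlap. Fos was at 3391 and 2718 CPM against 2244, 2091 and 2433 CPM, without overlap.

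The order of the Igf1r-deleted libraries differed between the immediate early sum, in which the most abundant genes weigh most, and the HSP70 pair. Igf1r-deleted replicate 1 had the highest Hspa1a and Hspa1b of its group but not the highest immediate early sum. Single immediate early genes went either way. Klf6 was at 381, 240 and 273 CPM in Igf1r-deleted replicates 1, 2 and 3, with replicate 1 the highest, whereas for Egr1 replicate 1 was the lowest. The 4 ubiquitin genes, which are also induced by proteotoxic stress, were all lower without overlap (median −0.32), where 14.9% of all genes were lower without overlap, and none passed the adjusted threshold of edgeR. The ubiquitin list, like the immediate early list, was chosen with earlier results of these data known. The part of handling during dissociation and sorting in the difference of the heat shock genes was not tested.

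Marker lists were read for the other cell types the sort could hold. All 9 tested hematopoietic markers were lower, with a summed level of 399 to 564 CPM in the controls and 208 to 463 CPM in the Igf1r-deleted libraries, where replicate 1 was again the highest. Epithelial markers (10 of 11 lower) summed to 1031 to 1107 CPM in the controls and 500 to 1109 CPM in the Igf1r-deleted libraries, and endothelial markers (5 of 9 lower) to 544 to 558 and 263 to 761 CPM. Mesothelial markers (4 of 5 lower) summed to 297 to 304 and 214 to 297 CPM. Of 6 erythroid markers 1 was tested, and 3 (Hba-a2, Hbb-bs and Hbb-bt) were listed at 0 in every library. No marker of the other lists was at 0 in every library. Fibroblast markers, which check the label of the cells, were lower for 9 of 10 and summed to 55688 to 62995 CPM in the controls and 39965 to 55819 CPM in the Igf1r-deleted libraries. Myofibroblast markers (10 of 12 higher) summed to 3968 to 4487 CPM in the controls and 4488 to 5257 CPM in the Igf1r-deleted libraries. The part of these cell types in the difference of the heat shock genes was not tested.

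Among 9092 genes with a mean of at least 10 CPM, those most like Hspa1a were found from the root mean square difference of centred log2 CPM over the 5 libraries. Hspa1b, which was not among the genes compared, was at 0.24. The nearest of those compared was Ccl6 (0.45), a chemokine of myeloid cells, followed by the metallothionein Mt1 (0.61). Hif3a, a hypoxia-inducible factor subunit, and Col6a6, a collagen VI chain, were each at 0.63, and the hyaluronan synthase Has2 at 0.64. The leukocyte actin regulator Coro1a followed at 0.70, then the cAMP-responsive factor Crem and the leukocyte gene Cytip at 0.71. The last of the 10 were the monooxygenase Fmo2 and the lysosomal protease Ctss at 0.74.

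Ccl6 was at 74.1 and 50.04 CPM in controls and 39.8, 13.4 and 10.6 CPM after deletion. Its order of genotypes and its high Igf1r-deleted library were those of Hspa1a. This follows from its choice by likeness to Hspa1a over the same libraries. Fmo2 was at 3528 and 1411 CPM in controls and 1193, 520 and 597 CPM after deletion. Its control replicates lay further apart than those of Hspa1a. Of the heat shock protein genes besides Hspa1b, Dnajb1 was at a distance of 0.96 from Hspa1a and the others were at 1.21 to 1.42. All 10 heat shock protein genes had been kept out of the genes compared. Among those compared, none of the 10 nearest to Hspa1a is a chaperone.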

How the data were processed

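The authors dissociated lungs enzymatically, sorted GFP-positive cells and sequenced RNA as paired 150-base reads. Per the study's methods and the submitters' processing notes, reads were trimmed with Trim Galore, aligned to mm10 with Bowtie2 and counted with GenomicAlignments. DESeq and Cufflinks are also named there. Alignment settings, gene annotation, strand and the treatment of reads with several matches are not given in the sources used here. The authors deposited raw counts per gene for each library, without normalization, and all 5 columns were used.

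The genotypes were compared in R 4.3.3 with edgeR 4.0.16 and limma 3.58.1. Genes were kept by filterByExpr (count minimum 10), libraries were scaled by TMM, and a two-sided quasi-likelihood F test on genotype alone was adjusted by Benjamini-Hochberg over 15298 genes. Standard errors are the log2 fold change divided by the square root of F. A prior count of 2 was added for log2 CPM. Simulated counts with known fold changes were used to check the fit. Chi-square per degree of freedom between libraries of 1 genotype was 23.2 to 50.7, so precision is limited by their spread and not by counting error. With 2 against 3 libraries, the smallest exact permutation p is 0.1.

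The 10 genes, the chaperone, immediate early, ubiquitin and marker lists and the tests were chosen with earlier results of these data known. Genes named beside the 10 are those with the lowest and highest log2 fold change of each chaperone list, Igf1r, the 10 genes nearest to Hspa1a and the 3 highest immediate early genes, and any other gene was picked after seeing its values. For 1 gene that this rule names, no value is reported here. Positions, exon lengths, overlaps and shared 150-base stretches came from GENCODE M21 on mm10. Alternatives were DESeq2 1.42.0, other scalings, filters and prior counts, a replicate block, leaving out each library, and summing Hspa1a with Hspa1b. DESeq2 gave no adjusted p for 2079 of the genes tested, and these stayed out of its calls.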

Additional observations from a re-analysis of the deposited data

How the results depend on the processing

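The count of genes at an adjusted p under 0.05 was 0 with DESeq2's size factors, library totals or either other filter, 197 with DESeq2's Wald test, 136 with the replicate block, and 0 to 45 with a library left out (45 without control replicate 2). At an unadjusted p under 0.05 the count of 1897 ran from 433 (without control replicate 1) to 3183 (without Igf1r-deleted replicate 1). For the other chaperone genes DESeq2 called 2 and the replicate block 1 at an adjusted p under 0.05, against 0, and with a library left out edgeR called 0, and 2 (without control replicate 1) to 12 at an unadjusted p, 4 and 6 of them without Igf1r-deleted replicates 2 and 3. The cause was not tested. The block rests on replicate numbers whose pairing the labels do not state. Deviations of libraries with the same number correlated at 0.208 and 0.121, with only 2 such pairs. Those of control replicate 2 and Igf1r-deleted replicate 3, of unlike number, correlated at 0.119. Deviations of the 2 controls from their mean mirror each other, so these values are not independent. The numbers were not treated as pairs.

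Of 112 values of the 10 genes under alternatives, 110 kept their sign, the exceptions being Hspd1 when control replicate 2 or Igf1r-deleted replicate 1 was left out. With a library left out, Hspa1a ran from −3.18 to −1.72 and Hspa1b from −3.26 to −1.57 on the log2 scale. The difference of inducible minus constitutive genes ran from −1.23 to −0.86 with a library left out and was −0.34 without Hspa1a and Hspa1b. With 2 controls and 3 Igf1r-deleted libraries, the spread of Hspa1a and Hspa1b leaves the size of their difference imprecise, and depth does not limit it.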
